A study of Mus musculus with 2 samples.

Results

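The regulators of G-protein signaling (RGS proteins) described here are the products of 10 mouse genes, Rgs2, Rgs3, Rgs4, Rgs5, Rgs7, Rgs10, Rgs12, Rgs16, Rgs17 and Rgs19. They were chosen by gene symbol from a deposited table of 37309 genes, each symbol matched 1 row, and the choice was made with the difference between the libraries already known. Cultured intestinal subepithelial myofibroblasts (ISEMFs), contractile mesenchymal cells that lie beneath the crypt epithelium, were sequenced as 1 supportive library and 1 non-supportive library. The supportive ISEMFs were grown from the small intestine of neonatal C57BL/6 mice, 5 days old by the study's methods, and sustain enteroids without added R-spondin. The non-supportive ISEMFs came from adult C57BL/6 mice, 2 months old by the study's methods, and support enteroids only weakly without it. Both were wild-type cells isolated in the same way and expanded in the same serum- and EGF-containing medium, so the populations differed in the age of the mice as well as in their support of enteroids, and the cultures can hold other cells of the tissue. How often each culture had been passaged is not given in the sources used here. Codes in the deposited names differ between the libraries and could stand for passages, so a difference in passage cannot be told apart from the population. Each population is 1 library, so the differences below have no replicate check, no test was made, and the intervals given cover counting error only.

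Heterotrimeric G proteins carry signals from receptors such as those for endothelin, thrombin and serotonin. An active receptor loads the alpha subunit with GTP, and the signal lasts until the alpha subunit hydrolyses it. RGS proteins speed up that hydrolysis through a shared RGS domain and so shorten the signal, mostly for alpha subunits of the Gi/o and Gq/11 classes. In smooth muscle and related contractile cells they limit contraction set off by such receptors. The R4 subfamily (here Rgs2, Rgs3, Rgs4, Rgs5 and Rgs16) holds mostly small proteins with little beyond the RGS domain, the RZ subfamily (Rgs17 and Rgs19) carries a string of cysteines that is palmitoylated, the R12 subfamily holds Rgs10 and Rgs12, and Rgs7 belongs to the R7 subfamily, which pairs with the G beta subunit Gnb5.

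The sequences just before the transcription start sites are shown for the 5 genes that differed at least 2-fold between the libraries, because 4 of them share a CCAAT box there. Each line gives the 130 bases that end at the base before the start site, 5′ to 3′ on the strand of the gene. The start sites are those of RefSeq on GRCm38.p6, and the coordinates are on mm9, where each RefSeq window of 300 bases had a single exact match. Capitals mark a CCAAT box (CCAAT, or ATTGG where it lies on the other strand), a TATA box (TATAAA) or an AP-1 site (TGANTCA).
Rgs16, chr1:155587353-155587482, plus strand: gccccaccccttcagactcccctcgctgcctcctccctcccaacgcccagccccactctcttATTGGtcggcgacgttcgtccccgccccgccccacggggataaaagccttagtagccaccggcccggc
Rgs2, chr1:145851280-145851409, minus strand: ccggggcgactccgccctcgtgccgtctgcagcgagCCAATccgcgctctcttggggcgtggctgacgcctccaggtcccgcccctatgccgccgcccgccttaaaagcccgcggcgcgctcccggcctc
Rgs4, chr1:171677774-171677903, minus strand: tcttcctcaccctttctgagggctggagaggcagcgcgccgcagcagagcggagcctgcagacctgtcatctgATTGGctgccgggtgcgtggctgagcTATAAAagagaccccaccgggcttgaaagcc
Rgs5, chr1:171585502-171585631, plus strand: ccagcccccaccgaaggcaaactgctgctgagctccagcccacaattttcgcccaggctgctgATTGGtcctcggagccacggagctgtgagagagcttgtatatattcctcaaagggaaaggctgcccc
Rgs17, chr10:4424011-4424140, plus strand: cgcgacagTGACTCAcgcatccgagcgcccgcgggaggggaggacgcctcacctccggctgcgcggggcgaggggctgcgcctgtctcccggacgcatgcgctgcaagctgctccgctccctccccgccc

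In these windows, which run from 250 bases before the start site to 50 bases after it, the CCAAT box began 68 bases before the start site in Rgs16, 94 bases before it in Rgs2, 57 bases before it in Rgs4 and 67 bases before it in Rgs5. In Rgs2 it lay on the strand of the gene and in the others on the opposite strand. The remaining 10 windows of the 10 genes, among them that of Rgs17 and those of the R4 gene Rgs3, held none. A CCAAT box was present in 37.4% of all 32851 promoter windows, so it is a common element. Rgs4 also had a TATA box 31 bases before the start site, which 13.6% of all windows had somewhere, and Rgs17 had an AP-1 site 122 bases before it, which 7.81% of all windows had. GC boxes (GGGCGG), searched like the others on both strands, occurred in the windows of Rgs2, Rgs16 and Rgs17 but not in those of Rgs4 or Rgs5, and were present in 9 of the 14 windows of the 10 genes and in 35.7% of all windows. No cyclic AMP response element (TGACGTCA), CArG box or NF-kappaB site was matched in any of the 14 windows of the 10 genes, against 1.79%, 1.63% and 4.51% of all windows. These are matches of letters in a short window and not shown binding sites, and the shared CCAAT box was noticed after the expression values were known.

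Expression was compared as deposited RPKM, the reads of a gene scaled by its exon length and by library size. A gene was counted as different when its log2 ratio of supportive over non-supportive RPKM, with 0.1 added to each value, was at least 1 or at most -1 and either library reached an RPKM of 1. Reads on genes numbered 50674472 for supportive and 49615497 for non-supportive ISEMFs. Of the 10 genes, 8 reached an RPKM of 1, and of these 5 were at least 2-fold lower in supportive ISEMFs and 0 were at least 2-fold higher. Over all 9110 protein-coding genes that reached an RPKM of 1, 8.98% were at least 2-fold lower, 9.25% at least 2-fold higher and 18.2% either. The median log2 ratio of the 8 genes was -1.56, against -0.07 over all 9110. Because the 10 genes were picked with this contrast known, these counts describe the genes and support nothing further.

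**Figure D1:**
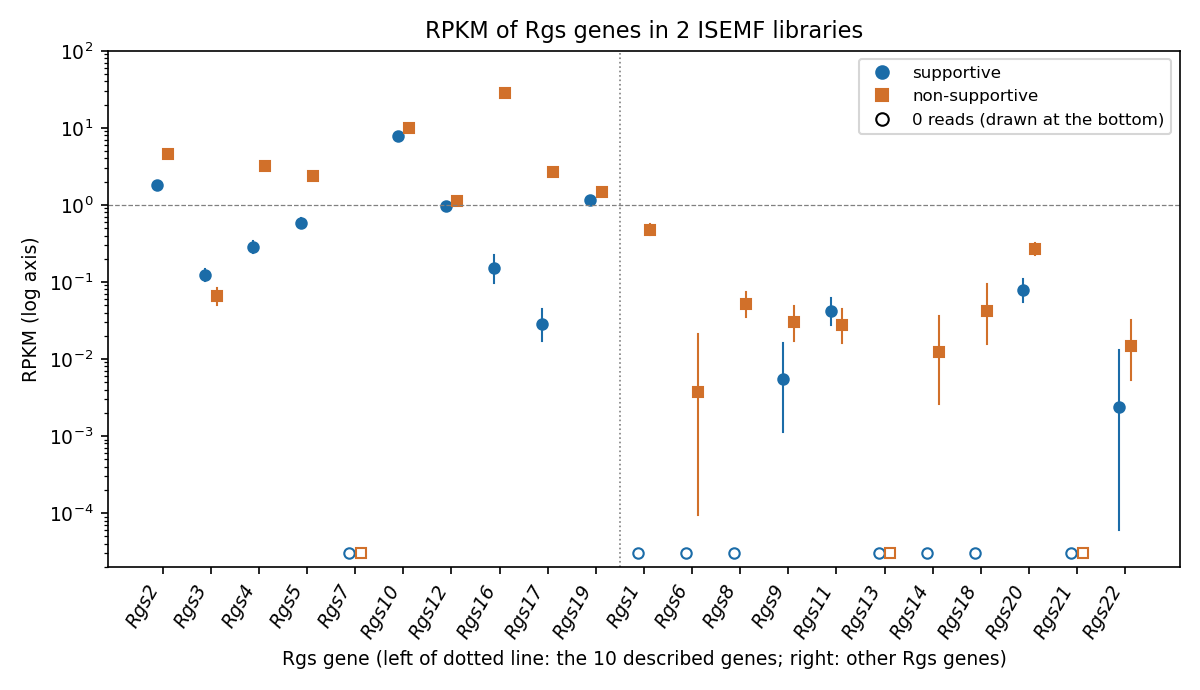
RPKM (log axis) of the 21 Rgs genes in the supportive library (circles) and the non-supportive library (squares), with 95% exact Poisson intervals from the reads as bars, open symbols at the bottom for 0 reads, and a dashed line at an RPKM of 1. Rgs16 spans the widest gap, from 0.150 to 28.2, while Rgs10, Rgs12 and Rgs19 sit close together in both libraries and Rgs3 is the described gene that is higher in the supportive library.

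Rgs16 encodes a small R4 protein that acts on Gi/o and Gq/11 alpha subunits. In mm9 it occupies the plus strand of chromosome 1 between 155587479 and 155592598. Supportive ISEMFs gave 25 Rgs16 reads (RPKM 0.150) and non-supportive ISEMFs gave 4575 (RPKM 28.2). The level in the supportive library was 188-fold lower (95% exact interval from the reads, 127 to 291). The log2 ratio of -6.82 was rank 5 from the lowest among the 9110 protein-coding genes. In level, Rgs16 went from rank 11512 of 22379 protein-coding genes in the supportive library to rank 881 in the non-supportive library.

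Rgs4 encodes an R4 protein best known from brain and heart. It occupies the minus strand of chromosome 1 between 171671608 and 171677773. The supportive library held 115 Rgs4 reads (RPKM 0.284), and the non-supportive library held 1252 (RPKM 3.18). That is an 11.2-fold lower level in supportive ISEMFs (95% exact interval, 9.25 to 13.7). Its neighbour on the chromosome is another gene of the set. Rgs5, which encodes an R4 protein typical of pericytes and vascular smooth muscle, lies from 171585632 to 171625944 on the plus strand, and 45663 bases separate the ends of the genes, with no other protein-coding gene between them. Supportive ISEMFs gave 188 Rgs5 reads (RPKM 0.578) and non-supportive ISEMFs gave 749 (RPKM 2.37), a 4.10-fold lower level (95% exact interval, 3.49 to 4.84). The pair was thus lower in the same library, Rgs4 by the wider margin, with a log2 ratio of -3.10 against -1.86. Nuf2, the protein-coding gene on the far side of Rgs5, had an RPKM of 6.41 in supportive and 4.93 in non-supportive ISEMFs and so did not share their direction.

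Rgs2 encodes an R4 protein that acts mainly on Gq/11 alpha subunits and limits the contraction of vascular smooth muscle. It occupies the minus strand of chromosome 1 between 145846468 and 145851291. Rgs2 reads numbered 472 in supportive ISEMFs (RPKM 1.82) and 1136 in non-supportive ISEMFs (RPKM 4.51). This was the smallest of the 5 differences, 2.48-fold (95% exact interval, 2.22 to 2.76), with a log2 ratio of -1.26. Rgs2 was also the R4 gene with the highest RPKM in the supportive library. Its protein-coding neighbours are Uchl5 on one side, with an RPKM of 12.3 in supportive and 30.6 in non-supportive ISEMFs, and Rgs13 on the other, without a read in either.

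Rgs3, the remaining R4 gene of the set, encodes a longer protein with several isoforms and went the other way. Rgs3 reads numbered 127 in supportive ISEMFs (RPKM 0.125) and 65 in non-supportive ISEMFs (RPKM 0.0656). Its level was 1.90-fold higher in the supportive library (95% exact interval, 1.40 to 2.60), but both levels were below an RPKM of 1, so it was not among the genes counted. Of the 9 genes of the set with reads, 8 had a lower RPKM in the supportive library and Rgs3 was the exception.

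Rgs17 encodes an RZ protein known from brain that acts on Gi/o alpha subunits. It occupies the plus strand of chromosome 10 in mm9, between 4424141 and 4520878. The supportive library held 19 Rgs17 reads (RPKM 0.0281), and the non-supportive library held 1768 (RPKM 2.69). The level was 95.8-fold lower in supportive ISEMFs (95% exact interval, 61.1 to 159), and the log2 ratio of -4.45 was the next largest of the set after Rgs16. Mtrf1l, 1752 bases further along the chromosome, did not share this direction, with an RPKM of 5.09 in supportive and 3.61 in non-supportive ISEMFs. Rgs19, also called GAIP, encodes an RZ protein that binds Gi alpha subunits. Its reads numbered 493 in supportive ISEMFs (RPKM 1.15) and 619 in non-supportive ISEMFs (RPKM 1.49), a 1.29-fold lower level (95% exact interval, 1.15 to 1.46).

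Rgs10 and Rgs12 are the R12 genes of the set. Rgs10 encodes a small protein selective for Gi alpha subunits, and Rgs12 a large one with further protein-binding domains. Rgs10 reads numbered 1016 in supportive ISEMFs (RPKM 7.77) and 1278 in non-supportive ISEMFs (RPKM 10.1), a 1.29-fold lower level (95% exact interval, 1.19 to 1.41). Rgs12 reads numbered 1087 (RPKM 0.966) and 1223 (RPKM 1.12), a 1.16-fold lower level (95% exact interval, 1.07 to 1.26). Both were therefore nearly level beside the R4 genes, with log2 ratios of -0.37 and -0.19. Rgs7 encodes an R7 protein of neurons and was without reads in both libraries. A count of 0 allows up to 3 reads, for Rgs7 an RPKM of 0.0217 in supportive and 0.0223 in non-supportive ISEMFs, so expression below that was not detectable at this depth.

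**Figure D2:**
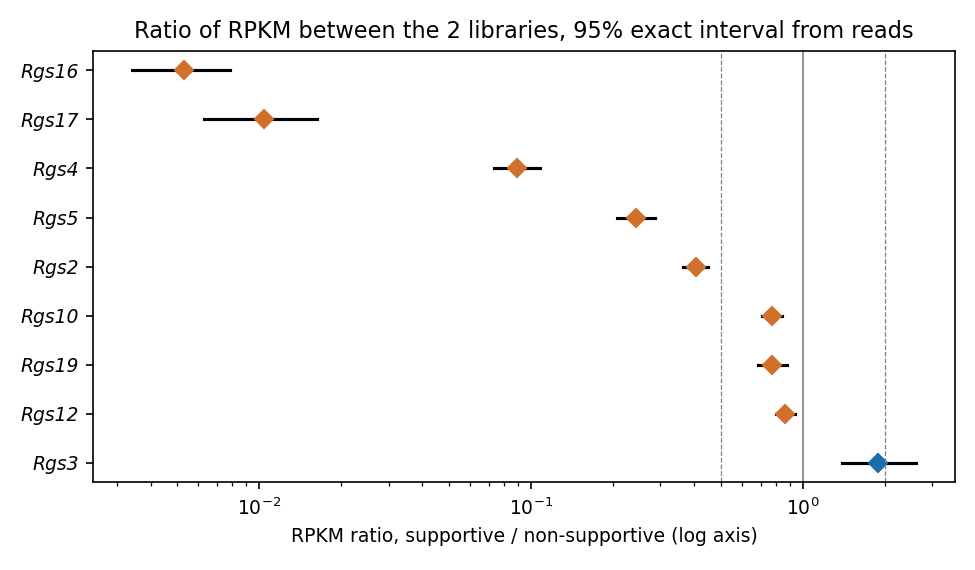
Ratio of RPKM, supportive over non-supportive (log axis), for the 9 genes of the set with reads, with 95% exact intervals from the reads as bars, a solid line at equal levels and dashed lines at 2-fold. Rgs16, Rgs17, Rgs4, Rgs5 and Rgs2 lie left of the 2-fold line, Rgs10, Rgs19 and Rgs12 lie between it and equal levels, and Rgs3 lies right of equal levels.

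The order of the levels differed between the libraries. In supportive ISEMFs the RPKM was highest for Rgs10 (7.77), followed by Rgs2 (1.82), Rgs19 (1.15), Rgs12 (0.966), Rgs5 (0.578), Rgs4 (0.284), Rgs16 (0.150), Rgs3 (0.125) and Rgs17 (0.0281). In non-supportive ISEMFs it was highest for Rgs16 (28.2), followed by Rgs10 (10.1), Rgs2 (4.51), Rgs4 (3.18), Rgs17 (2.69), Rgs5 (2.37), Rgs19 (1.49), Rgs12 (1.12) and Rgs3 (0.0656). Neighbours in these orders had separate 95% exact Poisson intervals, except Rgs16 (0.0968 to 0.221) and Rgs3 (0.104 to 0.148) in the supportive library. The levels of the genes in one library depend on the length used. The deposited exon length is 15742 bases for Rgs12, 6000 for Rgs19 and 1829 for Rgs10. In GENCODE vM1 the union of exons is shorter for these genes, at 7910, 2230 and 1711 bases. The longest protein-coding transcript there has 5472, 1511 and 880 bases. Per length of that transcript, an alternative chosen after seeing the data, Rgs10 stood at 20.9 beside Rgs16 at 28.2 in non-supportive ISEMFs. Rgs19 (4.57) and Rgs12 (2.78) stood above Rgs2 (2.19) in supportive ISEMFs. The plain ratio of RPKM between the libraries does not depend on length. The log2 ratio with 0.1 added and the minimum RPKM of 1 do. Rgs1, below the minimum at 0.476 in non-supportive ISEMFs, stood at 1.44 there per length of its longest protein-coding transcript.

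Over all 21 Rgs genes of the table, the summed RPKM was 13.0 in supportive and 54.6 in non-supportive ISEMFs, and the 10 genes made 99.0% and 98.3% of it. Rgs16 alone made 51.6% of the sum in non-supportive and 1.15% in supportive ISEMFs. Rgs10 made 59.8% in supportive and 18.4% in non-supportive ISEMFs. Without Rgs16 the sums were 12.9 and 26.4. By subfamily, the R4 genes summed to an RPKM of 2.96 in supportive and 38.9 in non-supportive ISEMFs, and the RZ genes to 1.26 and 4.45. The R12 genes summed to 8.74 and 11.2, and the R7 genes to 0.0478 and 0.0611. The supportive library was thus mostly R12 by summed RPKM, with 67.2%, and the non-supportive library mostly R4, with 71.2%. These sums and shares add levels of different genes, so they also depend on the deposited exon lengths.

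**Figure D3:**
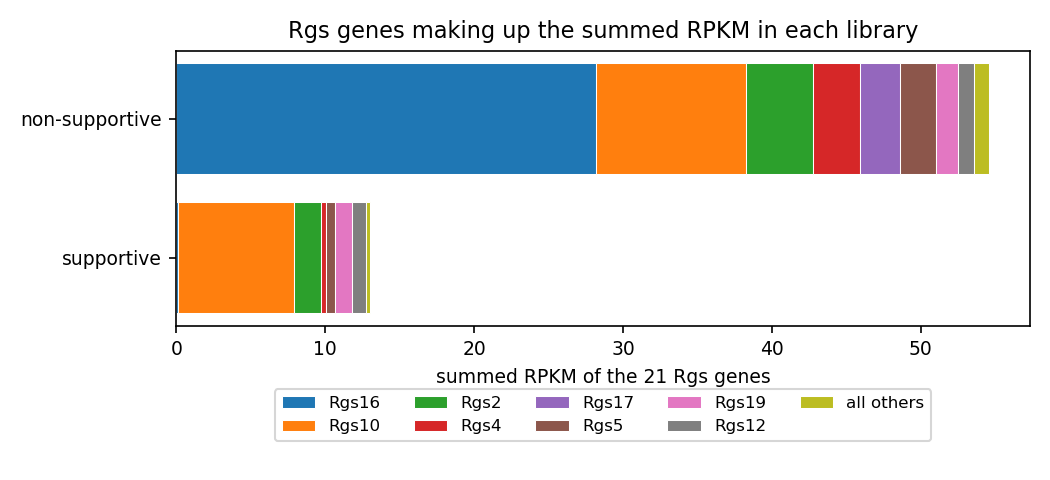
Summed RPKM of the 21 Rgs genes in each library, as bars from 0 divided by gene. The bar reaches 54.6 in non-supportive ISEMFs, with Rgs16 as the widest piece, and 13.0 in supportive ISEMFs, where Rgs10 is the widest piece.

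The other 11 Rgs genes all stayed below an RPKM of 1. Rgs1, an R4 gene typical of lymphocytes and other leukocytes, had 0 reads in supportive and 146 reads in non-supportive ISEMFs, an at least 50.1-fold lower level computed against 3 reads in the supportive library. Rgs8 had 0 and 31 reads, 10.6-fold lower computed in the same way, with 8.14-fold as the lower end of the interval. Rgs18, known from platelets and leukocytes, had 0 and 6 reads. Rgs20 of the RZ subfamily was at an RPKM of 0.0790 and 0.269. The remaining genes had few reads. Rgs13 and Rgs21 had no read, Rgs6 had 1 read and Rgs14 had 3 reads, all in the non-supportive library, Rgs22 had 1 and 6 reads, Rgs9 had 3 and 16, and Rgs11 had 27 and 17. Rgs11 and Rgs3 were the Rgs genes with more RPKM in the supportive library.

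Chromosome 1 carries 11 of the 21 Rgs genes and 5 of the 10 described here. Rgs2, Rgs4, Rgs5 and Rgs16 all lie on it, and these were the chromosome 1 Rgs genes that reached an RPKM of 1. Rgs2, Rgs13, Rgs1, Rgs21 and Rgs18 follow each other without another protein-coding gene between them, and Rgs8 lies 42681 bases before Rgs16. Among protein-coding genes that reached an RPKM of 1, 13.7% of 555 on chromosome 1 and 8.67% of 8555 on the other chromosomes were at least 2-fold lower in supportive ISEMFs. Of the neighbours named above that are not Rgs genes, Uchl5 passed 2-fold, with the lower level in supportive ISEMFs, while Nuf2 and Mtrf1l were within 2-fold.

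Markers of cell types were read in the same libraries. In bulk RNA, fewer cells of a type and less RNA per cell cannot be told apart. Acta2, the gene of α-SMA, and Vim, among the defining markers of these cells, were high in both libraries, at an RPKM of 908 and 325 in supportive and 1410 and 407 in non-supportive ISEMFs. Of the 5 myofibroblast markers 2 were at least 2-fold lower in supportive ISEMFs, Des at an RPKM of 0.575 against 3.40 and Pdgfra at 3.37 against 12.1, and the list summed to 1443 and 2193. Des encodes desmin, which the study describes as negligible in its ISEMFs and low in the adult ones. A low Des level thus belongs to the phenotype the study anticipated. The summed RPKM of the immune markers was lower in supportive ISEMFs, as were the sums of the myofibroblast, smooth muscle and endothelial markers. The sums of the pericyte, epithelial, and neuron and glia markers were higher there. Of 9 immune markers 4 reached an RPKM of 1, and all 4 were at least 2-fold lower in supportive ISEMFs. These 4 reached that minimum only in the non-supportive library, so the direction of their count was fixed by it. Over all 9110 protein-coding genes that reached it, 8.98% were at least 2-fold lower. The immune list summed to an RPKM of 0.496 in supportive and 13.0 in non-supportive ISEMFs. Ptprc, the gene of the leukocyte antigen CD45, had 0 reads in supportive and 879 in non-supportive ISEMFs. Itgam and Emr1, both macrophage surface genes, had 0 against 1070 and 0 against 622 reads. Cd68 had 51 against 715 reads and Csf1r had 25 against 343. Cd3e of T cells had 0 and 3 reads, and Kit had 0 and 6. The part of these cells in the lower levels of Rgs1, Rgs2, Rgs4, Rgs5, Rgs16 and Rgs17 was not tested.

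Pericyte markers, read because Rgs5 is typical of these cells, went in both directions. Of 10 markers 5 reached an RPKM of 1, of which 2 were at least 2-fold higher and 0 lower in supportive ISEMFs. All 10 together summed to an RPKM of 66.6 in supportive and 57.1 in non-supportive ISEMFs. Pdgfrb, the receptor of pericytes and fibroblasts, was at an RPKM of 28.1 in supportive and 7.67 in non-supportive ISEMFs, and Notch3 at 2.38 and 0.158. Mcam, which endothelial cells also express, shared the direction of Rgs5, at 29.7 and 44.7. Among markers with few reads, Abcc9 had 8 and 42 reads, Kcnj8 had 23 and 30, Higd1b had 5 and 2, and Ndufa4l2 had 31 and 4. The part of pericytes in the level of Rgs5 was not tested. Of the 6 smooth muscle markers 2 were at least 2-fold lower in supportive ISEMFs, Myh11 at an RPKM of 26.3 against 108 and Cnn1 at 78.6 against 187, and the list summed to 413 and 668. The 8 endothelial markers all stayed below an RPKM of 1, with a summed RPKM of 0.157 and 0.246, and Tie1 and Cldn5 were at 0 in both. Of 7 epithelial markers Lgr5, which also marks intestinal stem cells, reached an RPKM of 7.22 in supportive against 0.00443 in non-supportive ISEMFs. The others stayed below 1, with Cdx2 at 0 in both. Epcam, Krt8 and Krt18 had 0 reads in supportive and 5, 4 and 19 in non-supportive ISEMFs. Vil1 had 7 and 8 reads, and Cdh1 had 159 and 18. Of 8 neuron and glia markers 2 reached an RPKM of 1, S100b at 6.69 in supportive and 0.116 in non-supportive ISEMFs and Tubb3 at 1.92 and 3.52. The list summed to 8.68 and 3.72, mostly S100b in the former, with Sox10 at 0 in both.

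The other parts of G-protein signaling were read from lists of 120 genes, of which 50 reached an RPKM of 1. Of these, 6 were at least 2-fold higher and 11 at least 2-fold lower in supportive ISEMFs, with a median log2 ratio of -0.14. Over all 9110 protein-coding genes that reached an RPKM of 1, the shares were 9.25% and 8.98%, and the median was -0.07. Of the 8 alpha subunits that reached an RPKM of 1, 7 stayed within 2-fold. Gnai3, the Gi alpha subunit with the highest level, was at an RPKM of 69.8 in supportive and 88.3 in non-supportive ISEMFs, Gnaq of the Gq/11 class at 35.2 and 53.1, and Gna13 of the G12/13 class at 23.3 and 24.4. Gnao1, a Gi/o alpha subunit best known from brain, was the 1 alpha subunit that differed at least 2-fold, at 2.57 in supportive and 0.843 in non-supportive ISEMFs. Gnas, the Gs alpha subunit, was listed at only 0.455 and 0.466, and 22.0% of its exon length in GENCODE vM1 overlaps other genes, whose shared reads the authors left out. The part of this overlap in the low level of Gnas was not tested.

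Among the G beta and gamma subunits, Gnb4 was 3.24-fold lower in supportive ISEMFs (95% exact interval, 3.05 to 3.45) and Gng11 3.87-fold lower (95% exact interval, 3.62 to 4.14), while the other 5 that reached an RPKM of 1 stayed within 2-fold. Gnb5, the partner of R7 proteins, was at an RPKM of 7.26 in supportive and 8.13 in non-supportive ISEMFs although Rgs7 itself had no read. Of the other proteins with an RGS-like domain, among them the scaffold Axin1, 8 of 9 reached an RPKM of 1 and 0 differed 2-fold, with log2 ratios from -0.82 for Snx25 to 0.27 for Snx13. Gpsm2, which binds Gi alpha subunits at the mitotic spindle, stood 2.89-fold higher in supportive ISEMFs (95% exact interval, 2.63 to 3.17). The receptor kinase Grk5 was 2.58-fold higher (95% exact interval, 2.28 to 2.92) and Grk6 2.32-fold lower (95% exact interval, 1.94 to 2.79). The effectors Plcb3, Plcb4 and Adcy6, the phospholipases and the adenylyl cyclase that reached an RPKM of 1, were all within 2-fold.

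Of 46 receptors that act through Gq/11 or Gi/o, 17 reached an RPKM of 1, of which 3 were at least 2-fold higher and 8 at least 2-fold lower in supportive ISEMFs. The shares over all 9110 protein-coding genes were 9.25% higher and 8.98% lower. Agtr1a, the angiotensin II receptor, had 451 reads in supportive and 0 in non-supportive ISEMFs. Computed against 3 reads, its level was 146-fold higher, and the lower end of the 95% exact interval was 118-fold. Adra2a, a Gi-coupled adrenergic receptor, had 5 and 372 reads and was 76.6-fold lower (95% exact interval, 32.5 to 237), and S1pr3, a receptor of sphingosine 1-phosphate, had 37 and 590 reads and was 16.4-fold lower (95% exact interval, 11.8 to 23.5). Adra1d, a Gq-coupled adrenergic receptor, had 178 and 14 reads and was 12.4-fold higher (95% exact interval, 7.17 to 23.1). The receptor list thus held differences in both directions. The Rgs genes that passed 2-fold were all lower in supportive ISEMFs, but they were picked with this contrast known. Rgs16, Rgs17, Rgs4 and Rgs5 reached an RPKM of 1 only in the non-supportive library. Rgs3 and Rgs11, with more RPKM in the supportive library, did not reach it. The directions of the receptors and the Rgs genes can therefore not be compared.

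**Figure D4:**
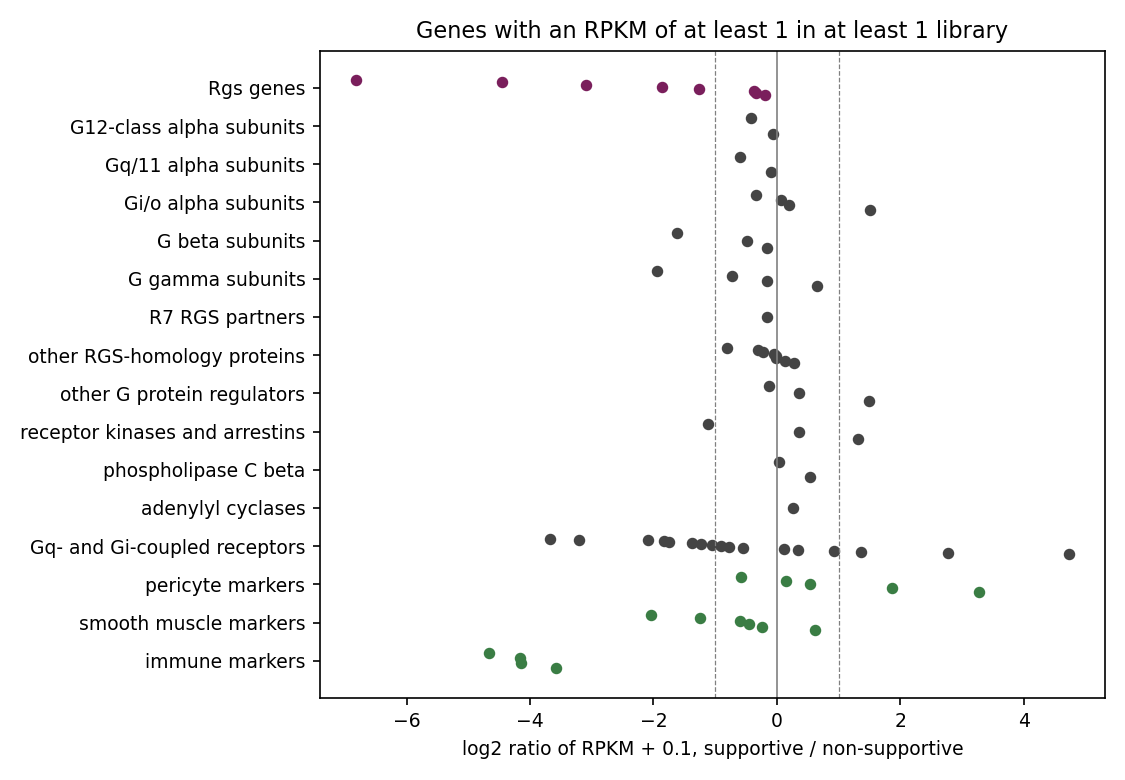
Log2 ratio of RPKM, supportive over non-supportive with 0.1 added to each value, for genes that reached an RPKM of 1 in either library, 1 point per gene, by list, with dashed lines at 2-fold. The Rgs genes lie at or below -0.19 and reach -6.82, the G-protein subunits lie mostly within 2-fold, the receptors spread from -3.67 to 4.73 and the immune markers lie between -4.66 and -3.58.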

How the data were processed

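RNA from supportive and from non-supportive ISEMFs was sequenced, 1 library each, as single-end reads of 50 bases. The authors aligned the reads to mm9 with TopHat (TopHat2 2.0.4 and HTSeq 0.5.4p3 are named in the submitters' processing notes), kept unique hits with up to 2 mismatches and counted reads per gene of the Ensembl annotation, leaving out reads not unique to 1 gene. Gene counts are deposited as whole reads, not normalized. The deposited RPKM values divide those counts by a deposited exon length, by the study's methods the union of all exons, and by library size. The library sizes were 71463423 and 69449374 reads. The deposited log2 ratio and DESeq p-values hold the authors' own comparison and were not used. A shorter deposited table of Wnt pathway genes was not used here.

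The genes and lists were chosen with earlier results of these data known. Named are all Rgs genes, at most 4 genes with the largest absolute log2 ratio of each other list, the alpha subunit with the highest RPKM of each class, and markers by counts and sums. The neighbours on the chromosome, and further genes named as examples of a list (Axin1 and individual markers), were added after their values were seen. Log2 ratios used a pseudocount of 0.1, which understates differences of low genes. Intervals at 95% are exact, Clopper-Pearson for ratios and Poisson for levels. A fold against 0 reads was computed at 3 reads. With 1 library per population there are no residual degrees of freedom, so neither edgeR nor DESeq2 was used for a test, and both served only for scaling factors. A gene without reads can make up to 5.92e-06% of the supportive and 6.05e-06% of the non-supportive reads on genes. Coordinates and overlaps come from GENCODE vM1 on the same build, which holds all 37309 gene identifiers, 65.7% of them with the deposited exon length. No exon of the 10 genes overlaps another gene there. For Rgs3, Rgs4, Rgs7, Rgs10, Rgs12, Rgs17 and Rgs19 the deposited exon length is longer than in GENCODE vM1. Overlaps of those further bases were not checked. Promoter windows come from RefSeq (GRCm38.p6), 14 windows for the 10 genes. RefSeq and mm9 place Rgs17 on opposite strands of chromosome 10. Protein sequences were not used here, and a few genes of the lists and neighbourhoods are not reported here. The calculations were tested on simulated data. Tables and intervals were computed with pandas 2.3.3 and scipy 1.17.1 (numpy 2.4.6, Python 3.11.15), scaling factors with DESeq2 1.42.0 and edgeR 4.0.16 under R 4.3.3, and plots with matplotlib 3.10.9.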

Additional observations from a re-analysis of the deposited data

How the results depend on the processing

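The number of described Rgs genes at least 2-fold higher in supportive ISEMFs was 0 under all 9 alternatives. The number at least 2-fold lower was 5, or 4 with a pseudocount of 1, where Rgs2 left with a log2 ratio of -0.97, and it was 1 with a minimum RPKM of 5, which leaves Rgs16 and Rgs10, and 3 at a 4-fold threshold. Their median log2 ratio of -1.56 was -1.03 with a pseudocount of 1, -1.67 with 0.001, -1.54 with TMM, -1.55 with DESeq2 size factors, -1.50 after rescaling the median of all genes to 0, -3.60 with a minimum RPKM of 5, and -1.26 with either no minimum or a minimum of 10 reads. No log2 ratio of a single gene changed sign. That of Rgs17 depended most on the pseudocount, at -1.84 with 1 and -6.53 with 0.001. For the G-protein signaling lists, the 6 genes higher and 11 lower became 3 and 7 with a pseudocount of 1, 1 and 5 with a minimum RPKM of 5, 13 and 20 with no minimum, 13 and 20 with a minimum of 10 reads, and 2 and 3 at a 4-fold threshold. No paired analysis was possible because each population has 1 library, and no library could be left out for the same reason. Genes with few reads in the supportive library, Rgs16 with 25 and Rgs17 with 19, have the widest intervals of the described genes relative to their ratios.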
